A study of Rattus norvegicus with 24 samples.

Results

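The genes described here encode the giant filament scaffolds and the myosin-associated proteins of the sarcomere: titin (Ttn), nebulin (Neb), the 3 myomesins (Myom1, Myom2 and Myom3) and 3 myosin-binding proteins (Mybpc1, Mybpc2 and Mybph). They were chosen by symbol from a list of 8, and rows of the transcript table were summed per gene. Of the 8 symbols, 7 had rows, 10 transcripts in all, among 15273 gene symbols and 20027 transcripts. Titin was not analysed here. In Rnor_6.0 the genes lie on chromosomes 3 (Neb), 9 (Myom1), 16 (Myom2), 5 (Myom3), 7 (Mybpc1), 1 (Mybpc2) and 13 (Mybph). RNA from the tibialis anterior of adult male Wistar rats had been sequenced after 2, 10, 20 or 30 days of daily SpillOver resistance training, in which an implanted pulse generator contracted the left dorsiflexors against the co-activated plantarflexors, and muscles were taken 1 h after the last bout. Each time point held 3 trained left muscles and the 3 unstimulated right muscles of the same animals. The 12 contralateral muscles formed 1 control group, and every animal, control side included, carried the implant in the abdomen and electrodes in the left leg. Levels are given as TPM (transcript abundance per length, on a common total), a unit inferred from the deposited values, divided by a scaling factor per library. Fold changes are on the log2(value + 1) scale, which understates changes of low genes. The values carry no read counts, so the depth of each library cannot be read from them. The text of the paper gives a lower bound on the reads obtained per sample and refers to a supplement for quality data.

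Nebulin runs along the thin filament and is known for its part in setting the length and stiffness of that filament. Myomesins crosslink neighbouring myosin filaments at the M-band in the middle of the sarcomere. Myosin-binding protein C lies on the thick filament and modulates cross-bridge cycling, and it exists in a slow skeletal form encoded by Mybpc1 and a fast skeletal form encoded by Mybpc2, while Mybph encodes the smaller relative myosin-binding protein H.

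All 7 genes passed the filter on low values. After 2 days, 6 of the 7 were called at an adjusted p below 0.05 (limma, Benjamini-Hochberg), 2 higher and 4 lower, where 28.9% of the 11196 genes tested were called (15.4% higher, 13.5% lower). After 10 days 4 were called, 3 higher and 1 lower, against 28.9% of all genes (15.6% higher, 13.3% lower). After 20 days 2 were called against 21.4% (11.7% higher, 9.64% lower), and after 30 days 2 against 20.6% (11.1% higher, 9.46% lower), in both cases Myom3 higher and Mybpc2 lower. The median log2 fold change over the 7 genes was -0.45, 0.21, -0.00 and 0.02 in time order, beside -0.01, -0.03, -0.03 and -0.01 over all genes tested. The 3 trained muscles lay wholly outside the range of the 12 contralateral muscles for 2 genes after 2 days, Myom3 and Mybph, where 14.7% of all genes did so. They did so for 3 after 10 days, Myom3, Mybph and Mybpc2, against 18.1%, and for Mybpc2 alone after 20 days (13.0%) and after 30 days (13.6%).

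**Figure D1:**
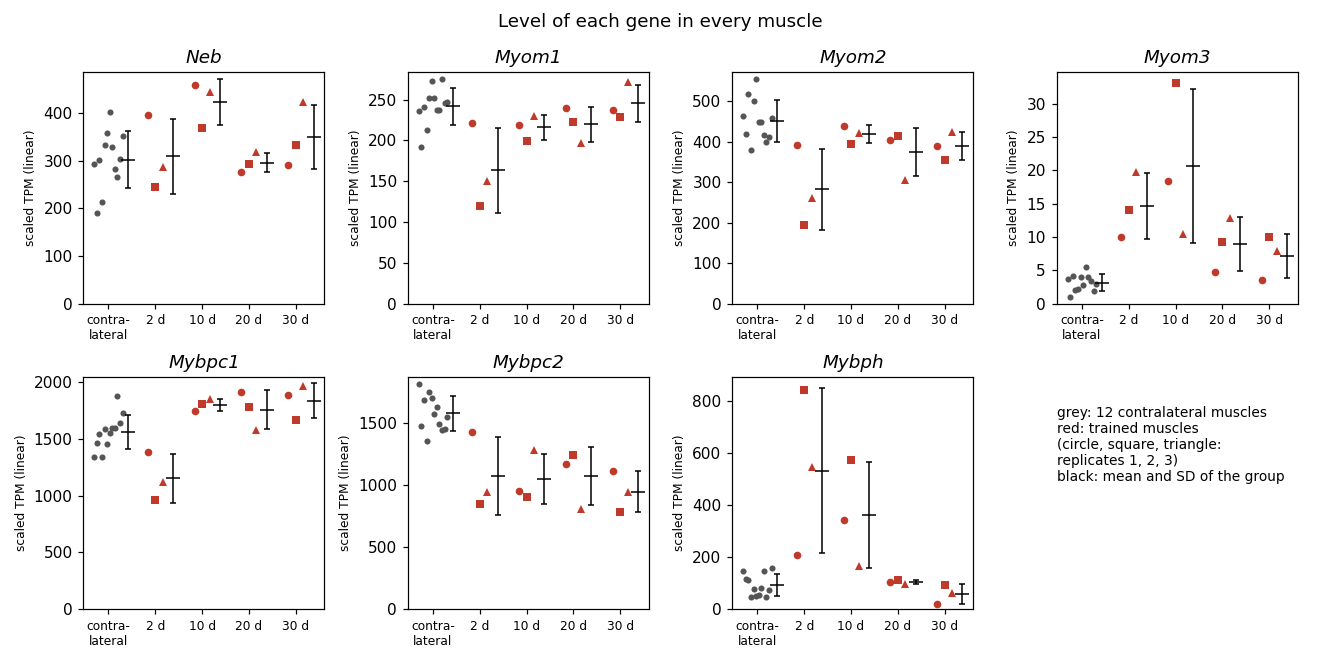
Scaled TPM (linear axis from 0) of each of the 7 genes in every muscle, with the 12 contralateral muscles in grey, ordered from the 2-day animals on the left to the 30-day animals on the right, and the trained muscles in red by replicate; black bars give the mean and SD. Mybph rose to 209, 843 and 545 TPM in the 2-day muscles, and all 3 Mybpc2 values lay below the contralateral range after 10, 20 and 30 days.

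Mybph rose after 2 and 10 days and was not called later. Its contralateral level ran from 45.0 through a median of 78.9 to 159 TPM. The 2-day trained muscles held 209, 843 and 545 TPM and the 10-day muscles 340.5, 572 and 166 TPM, so that every early trained muscle stood above every contralateral one, the lowest being replicate 3 of 10 days. The log2 fold change was 2.44 ± 0.45 (SE, n = 3 against 12) with an adjusted p of 2.4e-04 after 2 days and 1.92 ± 0.45 with 0.0023 after 10 days. With the animal as a block both calls stood, at 1.88 and 2.48. After 20 days the levels of 103, 113 and 96.6 TPM were back among the contralateral values. After 30 days they were 18.1, 92.6 and 62.4 TPM, with a fold change of -0.81 (95% interval -1.74 to 0.13, adjusted p = 0.22) that was -0.14 without replicate 1 and -1.28 without replicate 2 of the trained muscles, and not called in either case. The same-animal comparison gave a higher trained side in 3 of 3 animals after 2 and after 10 days, 2 of 3 after 20 days and 1 of 3 after 30 days. Among trained muscles, the 30-day level was lower than the 2-day level by a log2 difference of -3.25 ± 0.57 (adjusted p = 5.6e-04), a contrast in which 3 of the 7 genes were called against 15.0% of all genes. Mybph made up 2.84% ± 1.25 (SD, n = 12) of the summed TPM of Mybph, Mybpc1 and Mybpc2 in contralateral muscle and 19.9% ± 12.5 (n = 3) after 2 days.

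Myom3 was the scarcest of the 7 genes and the only one called higher at every time point. Contralateral muscles held 0.983 to 5.52 TPM, with a median of 3.24. Trained muscles held 9.97, 14.0 and 19.8 TPM after 2 days and 18.4, 33.2 and 10.5 TPM after 10 days, all above the contralateral maximum. After 20 days the values were 4.81, 9.27 and 12.9 TPM, and after 30 days 3.55, 10.1 and 7.98 TPM, with replicate 1 inside the contralateral range both times. The log2 fold changes in time order were 1.92, 2.30, 1.23 and 0.94, each ± 0.32 (SE), with adjusted p of 8.2e-05, 7.7e-06, 0.0072 and 0.040. All 3 animals at each time point had more Myom3 on the trained side, although in 1 of the 30-day animals by a log2 difference of only 0.02. With the animal as a block the calls after 2 and 10 days stood (adjusted p = 0.0030 and 0.0011), and those after 20 and 30 days were lost (0.15 and 0.12, with log2 fold changes of 0.91 and 1.03). Tested as a transcript rather than as a gene, where more features share the correction, the same values gave an adjusted p of 0.055 after 30 days. Myom3 has a single transcript row, so its share of the myomesins could be read directly: it was 0.452% ± 0.169 (SD, n = 12) of the summed TPM of the 3 myomesins in contralateral muscle, 3.49% ± 1.64 after 2 days, 3.19% ± 1.90 after 10 days, 1.56% ± 0.886 after 20 days and 1.13% ± 0.565 after 30 days (n = 3 each).

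The promoter of Myom3 is printed because this gene was called at all 4 time points. The 250 bases before the annotated start come from RefSeq (build GRCr8, chr5:153276056-153276305, plus strand), written 5′ to 3′, with capitals for every match to 5 motifs searched on both strands: the E-box CANNTG, the TATA box TATAAA, the MCAT element CATTCC, and the MEF2 and CArG consensus motifs.
Myom3: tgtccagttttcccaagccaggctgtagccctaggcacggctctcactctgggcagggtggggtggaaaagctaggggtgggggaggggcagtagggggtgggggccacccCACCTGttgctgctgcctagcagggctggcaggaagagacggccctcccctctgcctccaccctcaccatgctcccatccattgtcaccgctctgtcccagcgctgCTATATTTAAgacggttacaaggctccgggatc
The first capitals are an E-box 139 bases before the start, a class of motif found in 65.5% of 33465 promoters of this length. The second capitals, 33 bases before the start, match the MEF2 consensus, which 2.96% of promoters hold. The shares for the other motifs were 12.9% for the TATA box, 12.1% for MCAT and 1.50% for CArG. Such a match describes letters in the window and was not tested as a binding site.

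The more abundant myomesins went the other way, and were called after 2 days alone. Myom1 is the myomesin present in all striated muscle, and Myom2, also known as M-protein, is the form of fast fibres. Contralateral Myom1 ran from 192 through 244 to 276 TPM. After 2 days it was 221, 119 and 150.5 TPM, so that replicates 2 and 3 lay below all contralateral muscles and replicate 1 lay among them. The log2 fold change was -0.60 ± 0.13 (adjusted p = 7.6e-04). Contralateral Myom2 ran from 381 through 449 to 554 TPM, and the 2-day values were 392, 193 and 261 TPM, again with replicate 1 inside the range. Its log2 fold change was -0.73 ± 0.14 (adjusted p = 4.0e-04). Neither gene was called later: Myom1 gave -0.16 (95% interval -0.42 to 0.10), -0.14 (-0.40 to 0.12) and 0.02 (-0.23 to 0.28), and Myom2 gave -0.10 (-0.40 to 0.19), -0.27 (-0.57 to 0.02) and -0.21 (-0.50 to 0.09) after 10, 20 and 30 days. The sign of Myom1 after 30 days and of Myom2 after 10 days turned when the values were used without the scaling factors. Between trained muscles, Myom1 was higher after 30 than after 2 days by 0.63 ± 0.16 (adjusted p = 0.0090) and Myom2 by 0.52 ± 0.18, which missed the threshold (0.052). With the animal as a block neither passed (0.25 and 0.14). Myom1 was also lost with the values as deposited (0.29, adjusted p = 0.25) and without replicate 2 of 2 days (0.42, 0.10), whereas Myom2 passed without replicate 1 of 2 days (0.79, 0.0015) and was 0.18 with the values as deposited.

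The log2 ratio of Myom1 to Myom2 differed by 0.13, -0.06, 0.14 and 0.23 from a contralateral mean of -0.90 ± 0.16 (SD, n = 12), and none of the 4 time points passed (two-sided exact permutation test, adjusted p over 12 tests of 0.26, 0.56, 0.26 and 0.056). Within animals the mean differences were 0.29, -0.0046, 0.095 and 0.056, a different order, with the trained side higher in 3, 2, 3 and 2 of 3 animals. The pooled 30-day value passed without replicate 3 of the 20-day or replicate 1 or 2 of the 30-day contralateral muscles (0.050, 0.0094 and 0.037). The ratio of Myom3 to Myom2 rose by 2.65, 2.40, 1.51 and 1.15 on the log2 scale, with adjusted p of 0.0053, 0.0053, 0.0088 and 0.011, the last lost without replicate 2 or 3 of 30 days (0.094 and 0.057). The first 2 of these rest on an unadjusted p of 0.0022, the smallest that 455 assignments of 3 trained among 15 muscles can give.

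Myosin-binding protein C was where the slow and fast forms parted. Contralateral levels were nearly equal, 1562 ± 153 TPM (SD, n = 12) for Mybpc1 and 1580.1 ± 142 TPM for Mybpc2. The fast form Mybpc2 fell at all 4 time points. From a contralateral range of 1356 to 1820.04 TPM with a median of 1565, it went to 1431, 851 and 941 TPM after 2 days, 957, 908 and 1282 TPM after 10 days, 1167, 1241 and 804 TPM after 20 days and 1113, 781 and 948 TPM after 30 days. Apart from replicate 1 of 2 days, each of these muscles lay below every contralateral muscle. The log2 fold changes were -0.59, -0.60, -0.58 and -0.75, each ± 0.14 (SE), with adjusted p of 0.0034, 0.0026, 0.0049 and 6.3e-04, and in all 12 animals the trained side was the lower. With the animal as a block the calls stood, at adjusted p of 0.0082, 0.012, 0.021 and 0.014. No difference between trained groups was called for Mybpc2, the largest being 30 against 20 days at -0.17 (95% interval -0.54 to 0.21).

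The slow form Mybpc1 was called lower after 2 days and at no later time. The contralateral range was 1337 to 1881 TPM with a median of 1572. The 2-day muscles held 1383, 958 and 1117 TPM, replicate 1 again inside the range, with a log2 fold change of -0.45 ± 0.10 (adjusted p = 0.0022). That call was lost with the animal as a block (-0.35, adjusted p = 0.074) and against the contralateral muscles of the same time point alone (0.052). Later levels lay above the contralateral median in all 9 muscles and above its maximum in 3: 1743, 1810.2 and 1849 TPM after 10 days, 1916, 1780.05 and 1580.4 TPM after 20 days and 1884, 1667 and 1964 TPM after 30 days. The log2 fold changes of 0.21 (95% interval -0.00 to 0.43), 0.17 (-0.04 to 0.39) and 0.24 (0.02 to 0.45) did not pass the correction (adjusted p = 0.14, 0.26 and 0.11), although the 10-day value passed without the scaling factors (0.33, adjusted p = 0.036) and in the gene-level table (0.29, 0.039). The 30-day value was 0.070 with the animal as a block and 0.014 without the scaling factors. Contralateral Mybpc1 itself differed between time points, with means of 1452 ± 101, 1463 ± 127, 1583 ± 25.6 and 1749 ± 124 TPM (SD, n = 3 each) in the animals of 2, 10, 20 and 30 days. Between trained muscles, Mybpc1 was higher after 10 than after 2 days by 0.66 ± 0.13 (adjusted p = 0.0098), the only one of the 7 genes called in that contrast, where 1.93% of all genes were. After 30 against 2 days it was higher by 0.69 ± 0.13 (adjusted p = 0.0011). Both lost the call with the animal as a block (adjusted p = 0.24 and 0.23), the first also without replicate 2 of 2 days (0.075), and the second also with the values as deposited (0.35, adjusted p = 0.076). None of the 7 genes was called for 20 against 10 days (0.170% of all genes, with 3 members at an unadjusted p below 0.05) or for 30 against 20 days (0.0357% of all genes, with 0 members).

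As a ratio, the change was plain from 10 days on. The log2 ratio of Mybpc1 to Mybpc2 was -0.02 ± 0.21 (SD, n = 12) in contralateral muscle, between -0.44 and 0.38. It was 0.12 ± 0.15 after 2 days (difference 0.14, or 0.32 within animals, exact permutation test, adjusted p = 0.32), 0.80 ± 0.24 after 10 days, 0.74 ± 0.23 after 20 days and 0.97 ± 0.18 after 30 days (n = 3 each). The lowest of the 9 later trained muscles, at 0.52, stood above the highest contralateral muscle. The adjusted p of 0.0053 at each of these 3 times again comes from the smallest p the design allows. The ratio was higher on the trained side in 3 of 3 animals at each of the 4 time points. Within animals the mean differences were 0.32, 0.92, 0.72 and 0.73 in time order, largest after 10 days. The pooled differences were 0.14, 0.81, 0.75 and 0.99, largest after 30 days. In shares, the slow form was 49.7% ± 3.62 of the summed Mybpc1 and Mybpc2 in contralateral muscle, 52.1% ± 2.65 after 2 days, 63.4% ± 3.91 after 10 days, 62.4% ± 3.68 after 20 days and 66.1% ± 2.85 after 30 days.

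**Figure D2:**
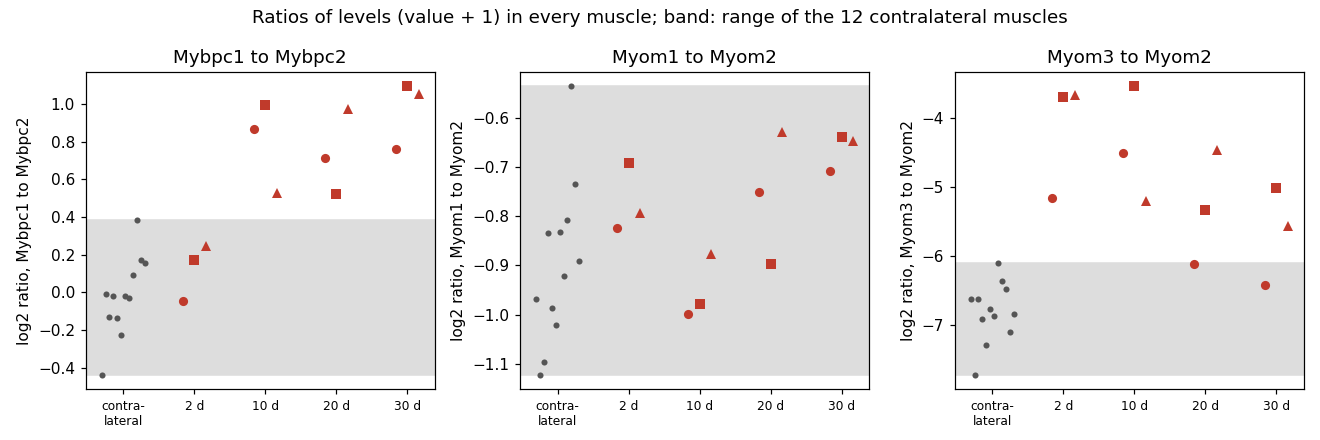
Log2 ratios of levels in every muscle for Mybpc1 to Mybpc2, Myom1 to Myom2 and Myom3 to Myom2, contralateral muscles in grey and trained muscles in red (circle, square and triangle for replicates 1, 2 and 3); the band is the range of the 12 contralateral muscles. The Mybpc1 to Mybpc2 ratio lay inside the band after 2 days and at 0.52 or above from 10 days on, while Myom1 to Myom2 stayed inside it throughout.

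The promoters of both forms are printed for comparison, each the 250 bases before the RefSeq start in GRCr8 on the minus strand, chr7:24903374-24903623 for Mybpc1 and chr1:104154102-104154351 for Mybpc2, 5′ to 3′ with capitals as above.
Mybpc1: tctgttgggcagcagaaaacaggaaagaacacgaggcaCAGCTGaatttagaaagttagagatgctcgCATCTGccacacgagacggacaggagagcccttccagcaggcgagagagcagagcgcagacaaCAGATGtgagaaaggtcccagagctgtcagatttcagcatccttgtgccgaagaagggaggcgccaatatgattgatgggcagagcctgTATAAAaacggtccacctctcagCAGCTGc
Mybpc2: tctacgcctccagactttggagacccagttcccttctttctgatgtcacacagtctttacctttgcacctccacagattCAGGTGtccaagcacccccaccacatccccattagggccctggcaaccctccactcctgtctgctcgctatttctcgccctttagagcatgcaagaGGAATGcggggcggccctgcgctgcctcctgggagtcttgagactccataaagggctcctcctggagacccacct
The window of Mybpc1 holds 4 E-boxes, the nearest 7 bases before the start, and a TATA box 30 bases before it. That of Mybpc2 holds 1 E-box, at 171 bases, and an MCAT element on the other strand at 75 bases, and no TATA box. Neither window holds a match to the MEF2 or CArG consensus. Of the 8 listed genes, 6 had a promoter in the table.

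Nebulin was called at 1 time point. Contralateral muscles held 191 to 402 TPM with a median of 302. Trained muscles held 395, 245 and 286 TPM after 2 days, 458, 368 and 444 TPM after 10 days, 277, 294 and 318 TPM after 20 days and 291, 334 and 422 TPM after 30 days. Only the 10-day level was called, with a log2 fold change of 0.51 ± 0.17 (adjusted p = 0.028), 2 of the 3 muscles above the contralateral range and a higher trained side in 3 of 3 animals. The call was lost with the animal as a block (0.52, adjusted p = 0.056), and without replicate 1 or replicate 3 of 10 days (adjusted p = 0.14 and 0.10). The other fold changes were 0.03 (95% interval -0.32 to 0.39), -0.00 (-0.36 to 0.35) and 0.22 (-0.14 to 0.57) after 2, 20 and 30 days.

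Neb, Mybpc1 and Mybph each had 2 transcript rows, and reads in shared exons had been divided between them by the authors' quantification, so that the split carries an error the values do not show. Over the 10 transcripts, 8 were called after 2 days (22.9% of the 13452 transcripts tested), 5 after 10 days (22.8%), 2 after 20 days (16.6%) and 1 after 30 days (16%). Of the nebulin transcripts, Neb-202 has the longer span, chr3:37658563-37854562 on the minus strand in Rnor_6.0, and was the minor row, at 72.3 ± 6.82 TPM (SD, n = 12) in contralateral muscle against 229 ± 63.1 TPM for Neb-201 (chr3:37658694-37803113). Neb-202 was higher after 2 days by a log2 fold change of 0.36 ± 0.11 (adjusted p = 0.017), with trained values of 87.5, 95.8 and 96.0 TPM above a contralateral maximum of 81.9 TPM. After 10 days it was higher by 0.57 ± 0.11 (adjusted p = 3.9e-04), with 110.5, 122 and 92.3 TPM. The 2-day call was kept in 16 of 20 alternatives, and the 10-day call in all 20. The losses of the 2-day call included the animal as a block (0.23, adjusted p = 0.23) and leaving out replicate 2 or 3 (0.10 and 0.084). Neb-201 gave -0.10 ± 0.25 after 2 days and 0.50 ± 0.25 after 10 days, neither called (adjusted p = 0.83 and 0.17), and its contralateral values ran from 110.5 to 334 TPM, a wider spread than that of Neb-202.

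Both rows of Mybph moved together. Mybph-201 changed by 2.41 ± 0.46 and Mybph-202 by 2.53 ± 0.48 after 2 days, and by 1.92 ± 0.46 and 1.87 ± 0.48 after 10 days, all called, although both 10-day calls were lost without replicate 2 (adjusted p = 0.059 and 0.077). Mybph-202 was 14.7% ± 3.87 of Mybph in contralateral muscle and between 14.0% and 16.3% in the trained groups. Mybpc1-201 carried most of its gene, at 1478 ± 127 TPM, and was the Mybpc1 row called after 2 days (-0.42 ± 0.10, adjusted p = 0.0034), while Mybpc1-202, at 83.5 ± 33.4 TPM, gave -0.97 ± 0.43 (adjusted p = 0.11). Against the same animals Mybpc1-202 was higher on the trained side in 2 of 3 after 2 days, and the value with the animal as a block was -0.23 (adjusted p = 0.74). It passed without replicate 1 of the trained muscles (-1.44, 0.035) or replicate 2 of the 2-day contralateral muscles (-1.14, 0.025). Contralateral Mybpc1-202 averaged 51.1, 69.5, 95.7 and 118 TPM in the animals of 2, 10, 20 and 30 days. No change in the share of a transcript in its gene was detected: 0 of 6 were called at any time by limma, nor was any at an unadjusted p below 0.05, and the largest usage difference was a log2 ratio of 0.55 (95% interval -0.32 to 1.41) for Mybpc1-201 after 2 days. As each gene here has 2 rows, their usage values mirror each other and amount to 1 test per gene. The background for usage was 1.76%, 1.21%, 0.571% and 0.690% of 4202 transcripts.

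**Figure D3:**
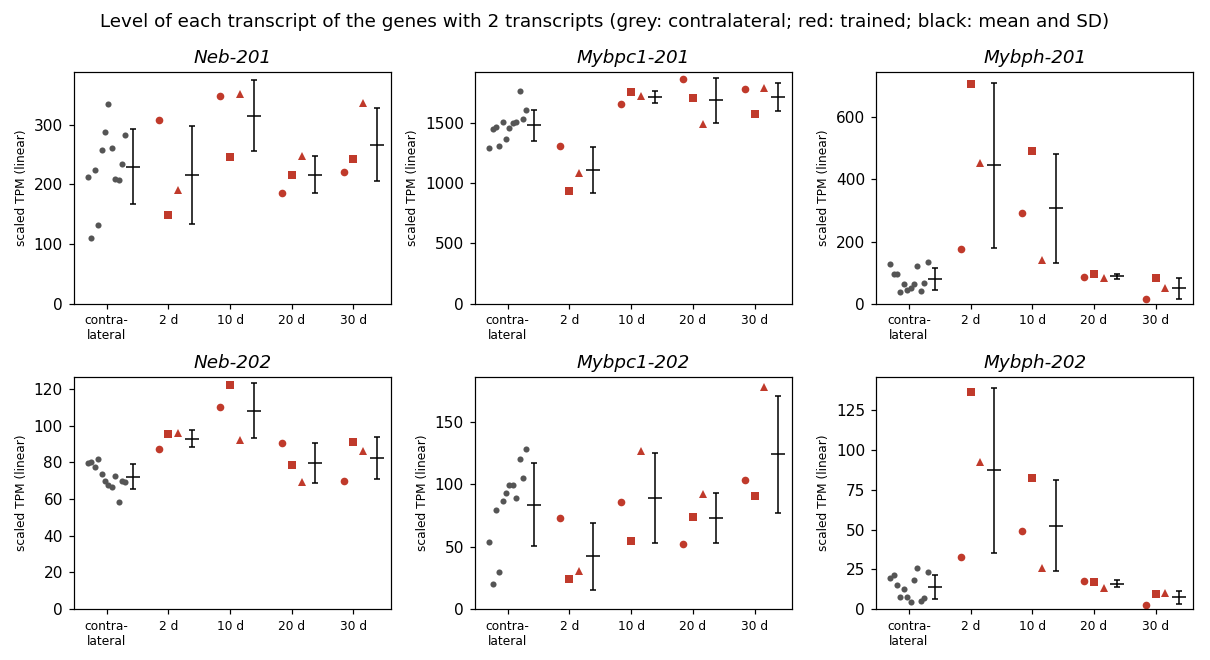
Scaled TPM (linear axis from 0) of both transcripts of Neb, Mybpc1 and Mybph in every muscle, contralateral in grey and ordered by time point from left to right, trained in red, mean and SD in black. Neb-202 reached 110.5, 122 and 92.3 TPM after 10 days, all above the contralateral maximum of 81.9 TPM, while Neb-201 overlapped its contralateral range.

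The 3 muscles of the 2-day group differed in how far they moved. Replicate 1 lay outside the contralateral range for 2 of the 7 genes, and replicates 2 and 3 for 6 each. The share of all genes outside that range was not computed for single libraries, so these counts have no background beside them. Another measure was read over genes picked for a large change. Of 443 genes with a mean log2 difference above 1 in size after 2 days, replicate 1 was the nearest of the 3 to the contralateral mean in 80.6%. Without replicate 1 all 6 calls stood, with larger values, -0.84 for Myom1, -0.99 for Myom2, -0.59 for Mybpc1, -0.81 for Mybpc2, 3.00 for Mybph and 2.15 for Myom3. Without replicate 2 the calls for Mybpc1 (-0.32, adjusted p = 0.068) and Mybpc2 (-0.44, 0.082) were lost. Without replicate 3 of 20 days the calls for Mybpc2 (-0.39, 0.092) and Myom3 (0.95, 0.084) were lost. Myom3 after 30 days had an adjusted p below 0.05 in 11 of 22 alternatives. That count includes the stricter threshold of 0.01, which the main value of 0.040 missed. The call was lost without replicate 2 (0.68, 0.26) or replicate 3 (0.83, 0.17) of the trained muscles. At adjusted p between 0.050 and 0.054 it was also lost without any 1 of 4 contralateral libraries (replicates 1 and 2 of 10 days, 1 of 20 days and 2 of 30 days).

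**Figure D4:**
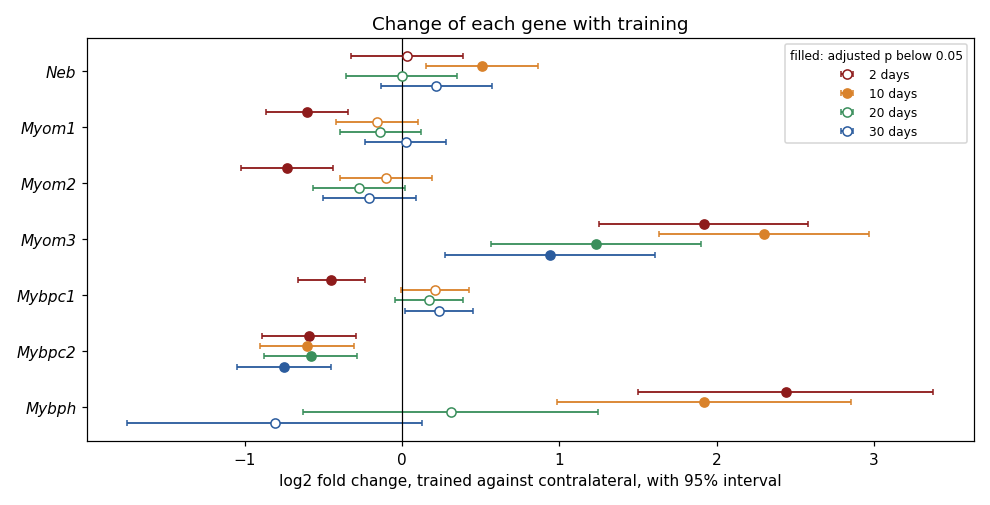
Log2 fold change of each gene, trained against the 12 contralateral muscles, with its 95% interval; colours give the time point and filled symbols an adjusted p below 0.05. Myom3 was called higher and Mybpc2 lower at all 4 time points, and the filled symbols of Myom1, Myom2 and Mybpc1 are those of 2 days, at -0.60, -0.73 and -0.45.

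Genes of the proteins that bind or regulate these filaments were read as a set of 7 lists. Of 43 partner genes tested, 23 were higher and 5 lower after 2 days, 19 and 7 after 10 days, 14 and 5 after 20 days, and 14 and 7 after 30 days. Over all genes tested the shares higher and lower were 15.4% and 13.5%, 15.6% and 13.3%, 11.7% and 9.64%, and 11.1% and 9.46%. The lists were written with earlier results of these data known, so the partner counts cannot test for an excess over these shares. With the values as deposited, the 30-day split was 9 higher and 14 lower, and no called partner gene changed sign. Among the thin filament length and nebulin partners, 8 of 10 were higher and none lower after 2 days. They included Klhl40 (log2 fold change 3.42 ± 0.17), which stabilises nebulin, Lmod2 (2.56 ± 0.19), a nucleator of actin at the filament end, and Xirp1 (4.30 ± 0.22), an actin-binding protein of the attachment sites. These stayed higher after 30 days, at 1.53, 1.69 and 2.94, whereas Neb itself was called only after 10 days. In the same list Tmod1, which caps the thin filament, was higher after 2 days (0.74 ± 0.11) and lower after 20 and 30 days (-0.35 and -0.43). Lmod3 and Tmod4 were called lower after 10 days (-0.36 and -0.29).

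Of the titin Z-disc and N2A ligands, 8 of the 9 listed were tested, and 5 were higher and 2 lower after 2 days. Ankrd1, a stress-responsive ankyrin repeat protein that binds the titin N2A region, rose from 10.5 ± 7.44 TPM (SD, n = 12) to 1564 ± 1147 TPM (n = 3) after 2 days and was still at 53.6 ± 7.91 TPM after 30 days (log2 fold changes 6.92 ± 0.51 and 2.47 ± 0.51). Csrp3, the muscle LIM protein, changed by 4.04 ± 0.39 after 2 days and 2.65 ± 0.39 after 30 days. The alpha-actinins split, with Actn2 higher by 0.85 ± 0.14 and Actn3, the fast-fibre form, lower, with -0.74 ± 0.19 after 2 days and -2.18 ± 0.19 after 30 days.

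The M-band and scaffold partners were mixed, with 2 of 10 higher and 2 lower after 2 days and 2 higher and 3 lower after 30 days. The higher genes were Fhl1 and Fhl2 at both times. Fhl2 reached at most 0.568 TPM in contralateral muscle, so it passed the filter on low values through trained muscles alone. Its call as higher is therefore not independent of that filter. Fhl1, a LIM protein of the sarcomere, was the most changed (2.50 ± 0.14 after 2 days, 1.80 ± 0.14 after 30 days), and Cmya5, or myospryn, was lower throughout (-0.83 ± 0.16 after 2 days, -0.65 ± 0.16 after 30 days). Trim63, the M-line ubiquitin ligase also called MuRF1, was higher at all 4 times (1.13 after 2 days, 0.70 after 30 days). Its list of 5 genes also holds Nbr1 and Sqstm1, which are not ligases. After 2 days 3 of the 5 were higher, Trim63, Trim55 and Sqstm1, and later Trim63 alone.

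Of the 5 thick filament assembly genes, 2 were higher after 2, 10 and 20 days, the chaperones Hsp90aa1 (1.68 ± 0.23 after 2 days) and Hspb8 (1.77 ± 0.18). After 30 days Hsp90aa1 was higher (0.95 ± 0.23) and Unc45b, a myosin chaperone, lower (-0.33 ± 0.12, adjusted p = 0.048, lost with the animal as a block). Of the 4 splicing factors that act on titin, Rbm24 (0.44 after 2 days, 0.38 after 30 days) was higher and Rbfox1 (-0.46 and -0.40) lower at all 4 times, although Rbfox1 lost the call after 20 and 30 days with the animal as a block. Ptbp1 was higher after 2, 10 and 20 days (0.54, 0.79 and 0.53) and not called after 30 days (0.13), and Rbm20 was not called at any time. Of the 4 relatives outside the 8 genes, Nrap, a nebulin-related anchoring protein, passed the filter and was higher after 2, 10 and 30 days (1.11, 0.67 and 0.55), while Mybpc3 and Nebl did not pass it.

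**Figure D5:**
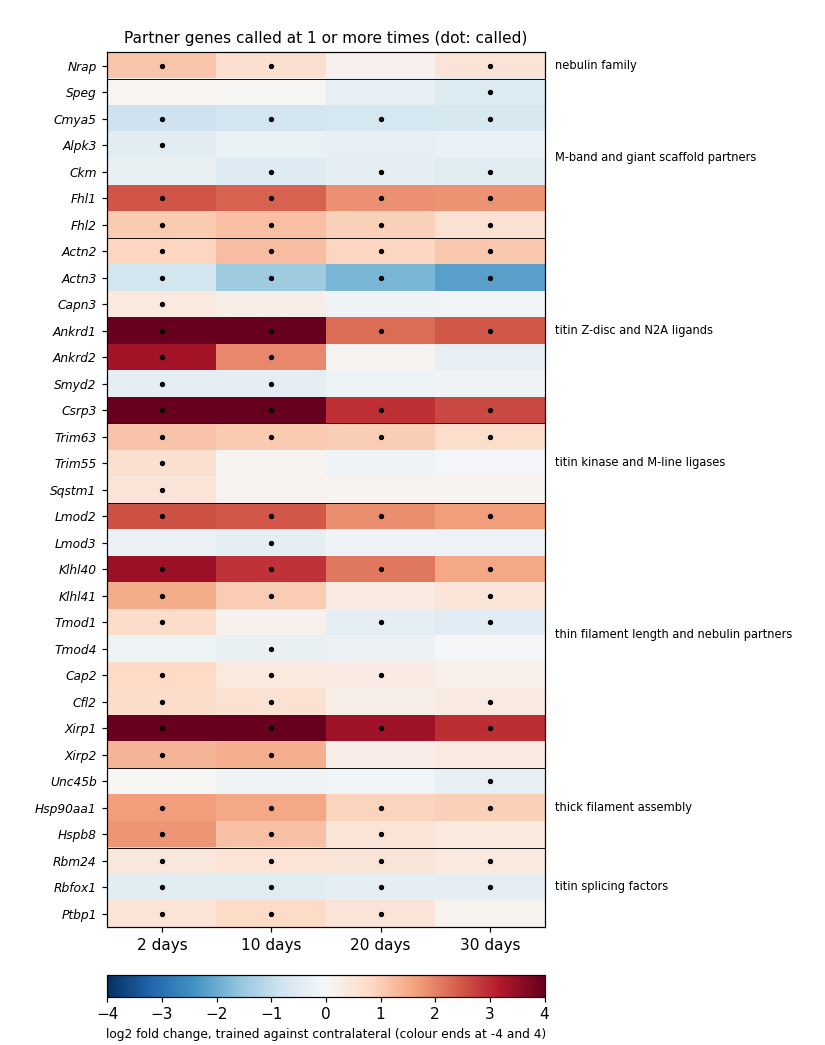
Log2 fold change (colour, ending at -4 and 4) of the 33 of 43 partner genes called at 1 or more time points, by list and time; a dot marks an adjusted p below 0.05. The darkest cells are Ankrd1, Csrp3 and Xirp1 after 2 and 10 days, and Actn3 deepens from -0.74 to -2.18.

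Over the 24 samples, the genes with the pattern most like each member were named by Pearson's r of log2 levels, as a description in which the shared design sets much of the value. Mybph was most like Ankrd2, which binds titin at the N2A region (r = 0.871), and then Fam174a and Akirin1. Myom3 was most like the protease gene Capn2 (0.886), then Clic4 and App. Mybpc2 was most like Ptpn11 (0.951), Lrrc20 and Pygm, the muscle glycogen phosphorylase, and Mybpc1 most like Mgll (0.803), Mb, which encodes myoglobin, and Opa1. For Neb the 3 were Akap2 (0.838), Filip1l and Gigyf2, for Myom1 AABR07026654.1 (0.928), Ppm1l and LOC103693780, and for Myom2 Acacb (0.880), Myom1 and Mfn2. Within the family, Mybph and Myom3 gave r = 0.683, Mybpc2 and Myom3 -0.735, and Mybph and Myom1 -0.723.

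Markers of other cell types moved with training too. Over all genes tested, the shares called higher and lower were 15.4% and 13.5% after 2 days and 15.6% and 13.3% after 10 days. They were 11.7% and 9.64% after 20 days and 11.1% and 9.46% after 30 days. The summed level of 6 macrophage markers was 4.24 to 13.6 TPM in contralateral muscle and 14.4 to 34.8 TPM after 2 days, with 4 of 6 called higher then and 6 of 6 after 30 days. Of these, Adgre1 reached at most 0.734 TPM in contralateral muscle and passed the filter through trained muscles alone, so its 30-day call is not independent of the filter. The sum of 5 fibroblast markers went from 74.6 to 253 TPM up to 301 to 495 TPM, with 4 of 5 called higher. Of 6 fast-fibre markers 3 were called lower after 2 and 30 days and 4 after 10 and 20 days, and 1 was called higher, Mylpf after 10 days (0.32, adjusted p = 0.042), a call lost with the animal as a block (0.23, 0.29). The sum of 6 slow-fibre markers was 1110 to 2304 TPM in contralateral muscle, 721 to 1079 TPM after 2 days, with 3 of 6 called lower, and 918 to 1621 TPM after 30 days, with 0 called in either direction by limma. Of the cardiac markers Tnni3 stayed below 1 TPM in every group, and the sum with Myh6 was at most 6.46 TPM. The fibre markers, at 45549.6 TPM or more in sum, were those of skeletal muscle. Of 3 endothelial markers tested 1 was lower after 2 days and 2, 1 and 1 were higher later, of 2 satellite cell markers 1 was higher after 2 and 10 days, of 3 Schwann cell markers 2 were lower after 30 days, and of 2 adipocyte markers none was called by limma. Mitochondrial transcripts took 23.7% to 44.6% of a library, with 40.4% to 44.6% in the trained and 30.1% to 44.2% in the contralateral muscles of 30 days. The part of cell composition in the changes of the 7 genes was not tested, and in bulk RNA fewer cells of a type and less RNA per cell cannot be told apart.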

How the data were processed

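Poly-A RNA from 24 tibialis anterior muscles of 12 rats was sequenced, and the authors aligned and quantified the reads in Partek Flow with STAR against Rnor_6.0. The main deposited table holds TPM values per transcript, with the same total in every library (634430.6 to 634430.98). A deposited gene-level table of 4635 genes, scaled by the authors to a signal per gene span, served as an alternative. Another table holds only the authors' comparisons and was not used.

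TPM values were summed per symbol and divided by a median-of-ratios factor (0.778 to 1.14, from 16230 transcripts above 0 in all libraries). Genes with at least 1 TPM in 3 or more samples were kept, and limma 3.58.1 (R 4.3.3) was run on log2(value + 1), with 12 contralateral muscles and 3 trained muscles per time point as 5 groups and Benjamini-Hochberg adjustment over all genes at 0.05. Transcripts and transcript usage (log2 of a transcript over the rest of its gene) were fitted likewise. Ratios between members were tested by exact permutation of 455 assignments (scipy 1.17.1), adjusted over 12 tests. The limma step was run on simulated data drawn independently for each muscle, which held no likeness between the muscles of an animal.

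The members and the partner and marker lists were chosen with earlier results of these data known. All members were named, together with partner genes past the threshold or with the largest change in each list, and for each member the 3 genes of highest Pearson's r among those with a mean of at least 10. The genes named from the partner lists are a selection of those the rule allows. Replicate numbers marked muscles of the same animal, and deviations of the paired muscles gave a median r of 0.174 over 12 pairs (0.0277 to 0.343) against -0.00964 for others. Alternatives were the animal as a block, time-matched controls, no scaling, a pseudocount of 0.1, no filter, a mean of at least 10, an intensity trend, a threshold of 0.01, the gene-level table and leaving out each library. Leaving out the contralateral libraries other than replicate 1 of 30 days was chosen after seeing the data. A comparison with other genes of long proteins was not run. Titin is not reported here.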

Additional observations from a re-analysis of the deposited data

Results flagged for a closer look

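A total of 4 differences between trained groups passed the test of the difference itself (limma, adjusted over all genes). Mybpc1 was higher after 10 than after 2 days by a log2 difference of 0.66 (adjusted p = 0.0098) and after 30 than after 2 days by 0.69 (0.0011). Myom1 was higher after 30 than after 2 days by 0.63 (0.0090). These Mybpc1 and Myom1 differences for 30 against 2 days were lost with the values as deposited. Mybph was lower after 30 than after 2 days, with -3.25 (5.6e-04), and this was the difference that also passed with the animal as a block (-2.64, adjusted p = 0.036).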

How the results depend on the processing

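The changes of Myom3 after 2 and 10 days, of Mybpc2 after 10 and 30 days, of Mybph after 2 and 10 days and of Myom1 and Myom2 after 2 days kept direction and call in every alternative run. The Mybpc1 to Mybpc2 ratio after 10, 20 and 30 days did so in all 16 run for it, which were a pseudocount of 0.1 and leaving out 1 library. Time-matched controls and the gene-level table were not run for ratios, and the within-animal means, of the same sign, were not tested. For the remaining calls the cause of a loss was not tested. Without the scaling factors the median log2 change of all genes was 0.07, 0.07, -0.03 and -0.18 at the 4 times and -0.27 for 30 against 2 days, and calls over all genes moved from 1728 higher and 1507 lower to 2132 and 731 after 2 days, from 1746 and 1494 to 2096 and 682 after 10 days, from 1314 and 1079 to 1163 and 745 after 20 days, and from 1245 and 1059 to 647 and 2590 after 30 days.

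Members called after 20 days went from 2 to 1 with the replicate block, time-matched controls, a mean of at least 10 or the gene-level table. Those after 30 days went from 2 to 1 with the values as deposited, a pseudocount of 0.1, no filter, the replicate block, time-matched controls, a mean of at least 10, the gene-level table or a threshold of 0.01. Where a mean of at least 10 or the gene-level table was used, Myom3 was not tested. For 10 against 2 days the 1 call became 0 with the block and 2 with a mean of at least 10 or the gene-level table, and for 30 against 2 days 3 became 1 with the block. With the values as deposited the latter contrast lost Mybpc1 (0.347) and Myom1 (0.289) and gained Myom3, lower at -1.28 (adjusted p = 0.024), and an intensity trend, a mean of at least 10 or the gene-level table added Myom2. Transcripts called after 2 days went from 8 to 5 with time-matched controls, and after 20 days from 2 to 1 with the block and 0 with time-matched controls.

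Signs turned only in changes that were not called either way. With the values as deposited, Myom2 after 10 days became 0.0188, Myom1 after 30 days -0.199, Neb after 30 days -0.00422, Neb-201 after 2 days 0.0192, Mybpc1-201 after 30 days -0.00765 and Neb-202 after 30 days -0.0382. With the replicate block and with time-matched controls alike, Myom1 after 30 days became -0.0640 and Neb-201 after 2 days 0.243. In the gene-level table Neb after 20 days became 0.0497.

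Leaving out 1 library gave 0 to 2 members after 20 days, 1 to 2 after 30 days and 0 to 3 for 10 against 2 days, and 4 to 9, 3 to 5, 0 to 2 and 1 to 2 transcripts after 2, 10, 20 and 30 days. The 30-day ratio of Myom1 to Myom2 ran from 0.210 to 0.264, beside 0.0558 within animals, and that of Myom3 to Myom2 from 0.821 to 1.53. Changes that crossed 0 were Neb after 2 days (-0.160 to 0.183) and 20 days (-0.0590 to 0.0459), Myom1 after 30 days (-0.0484 to 0.0752), Neb-201 after 2 days (-0.384 to 0.135) and 20 days (-0.139 to 0.0695), and Mybpc1-202 after 10 days (-0.128 to 0.475) and 20 days (-0.259 to 0.143). With 3 trained muscles per time point and no read counts, small changes and those of low transcripts such as Myom3 have limited precision.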
